A study of Rattus norvegicus with 32 samples.

Results

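The clustered protocadherins of the adult rat hippocampus were followed across maternal iron and choline diets. Members were the rows of the count tables whose gene symbol begins with Pcdha, Pcdhb or Pcdhg, which gave 36 of 32883 rows: 3 in the alpha cluster, 17 in the beta cluster and 16 in the gamma cluster. RNA-seq counts came from the hippocampus of 32 Sprague-Dawley rats at 65 days of age, 4 rats in each of 4 diet groups of each sex. The groups were iron-sufficient rats (IS), iron-sufficient rats whose dams received extra choline in pregnancy (ISch), rats whose dams were fed an iron-deficient diet in gestation and early lactation (ID), and rats with both (IDch). The ID and IDch offspring returned to an iron-sufficient diet as pups, so the adult ID rats were formerly iron-deficient. Male rats, 1 per litter, were sequenced in batch I and female rats in batch II, and RNA was extracted with a different kit in each sex. Sex, sequencing batch and kit therefore cannot be told apart, and every comparison below was made within a batch.

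Clustered protocadherins are cell-surface adhesion proteins encoded in 3 neighbouring gene clusters. In the alpha and gamma clusters, each variable exon has its own promoter and is spliced to a set of constant exons that the cluster shares, whereas a beta gene is a single variable exon. A neuron usually transcribes a few isoforms chosen at random together with the C-type isoforms, which are used more constitutively. CTCF and cohesin, a DNA-looping complex, join a chosen promoter to a distant enhancer, and a promoter that is not chosen is DNA-methylated. Isoforms on opposing membranes bind only like isoforms, and this recognition serves dendrite self-avoidance, axon tiling and neuron survival.

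The shared letters of the promoters are shown first, because each isoform is transcribed from a promoter of its own. RefSeq promoter windows of assembly GRCr8, from 250 bases before to 50 bases after the annotated start, were found for 27 of the 35 distinct member symbols, in 28 windows. The longest word of letters held on the gene strand by at least 14 of the 28 windows was GGTGGCGCTG. It lay in 14 of the 15 beta windows and in 0 of the 12 gamma windows, whereas 0.221% of all 33469 windows held it on either strand. The word contains CGCT, the core letters of the conserved sequence element known from clustered protocadherin promoters. CGCT on its own was found on either strand in 25 of the 28 member windows and in 60.9% of all windows. The windows without it were that of Pcdhga1 and both of Pcdhga4. Stretches from members described below follow, 5′ to 3′ on the plus strand, with the word or, in gamma members, 1 of the CGCT matches in capitals.
Pcdhb3 (chr18:29285589-29285648): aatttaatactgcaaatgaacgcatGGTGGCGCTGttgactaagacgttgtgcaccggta
Pcdhb5 (chr18:29302389-29302448): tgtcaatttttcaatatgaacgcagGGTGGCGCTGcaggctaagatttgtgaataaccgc
Pcdhb6 (chr18:29320141-29320200): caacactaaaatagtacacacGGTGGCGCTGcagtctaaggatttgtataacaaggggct
Pcdhb19 (chr18:29478749-29478808): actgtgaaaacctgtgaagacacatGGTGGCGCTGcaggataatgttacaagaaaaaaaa
Pcdhga8 (chr18:29805047-29805106): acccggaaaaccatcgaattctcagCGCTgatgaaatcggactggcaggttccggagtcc
Pcdhgb8 (chr18:29839501-29839560): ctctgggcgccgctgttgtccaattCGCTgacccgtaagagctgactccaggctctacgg
The 250 bases before the RefSeq start of Pcdhga1, the member with the largest diet difference below, hold neither the word nor CGCT, so no letters are in capitals.
Pcdhga1 (chr18:29738389-29738638): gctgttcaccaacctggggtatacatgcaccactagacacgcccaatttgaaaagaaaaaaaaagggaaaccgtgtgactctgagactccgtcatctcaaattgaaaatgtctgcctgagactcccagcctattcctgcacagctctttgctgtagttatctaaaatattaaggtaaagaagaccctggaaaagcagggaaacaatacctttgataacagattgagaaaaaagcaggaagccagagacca
These matches are descriptions of letters, and an annotated start may differ from the start used in hippocampus. In 4 of the 28 member windows the letters at the annotated start were ATG, as at the start of a coding sequence. The absence of CGCT from a window is therefore not shown to be a trait of the promoter in use. The count tables were made on another build, Rnor_6.0, so these positions apply to the RefSeq windows only. In the beta members shown, the word began 61 bases (Pcdhb3), 52 bases (Pcdhb5) and 74 bases (Pcdhb19) before the annotated start, and 229 bases before it in Pcdhb6.

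Total counts were 3515806 to 9517503 in the male libraries and 18439999 to 26616318 in the female libraries, and members took 0.0517% to 0.0636% of male and 0.0667% to 0.0786% of female counts. At these depths, 3 counts, the most that a count of 0 allows, equalled 0.314 to 0.848 CPM in males and 0.113 to 0.163 in females, for counting error only. CPM values are counts relative to library size after TMM, a normalization that aligns most genes between libraries, and are not corrected for gene length, so levels were not compared between genes. The filter on low counts kept 35 members in each batch. Pcdhb1, with 0 to 2 counts in a library, failed it. In males, 3 libraries whose deposited names end in A (ISch replicates 1 and 2, IDch replicate 2) stood apart from the other 13 libraries. Their values lay above all others for 1.84% and below all others for 1.05% of 14314 genes, and for 1 member (Pcdhga10) and 1 member (Pcdhga1) of 35. Hippocampal neuron, dentate granule, CA1, glial and interneuron markers were detected in every group by their sums, and no marker row of any list was at 0 throughout a batch. Choroid plexus markers ranged from 2.36 to 17.8 CPM in sum except in male ID libraries, where they reached 384 CPM.

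The summed level of a cluster moved little with diet. In males the alpha sum was 162 ± 9.82 CPM in IS (SD, n = 4) and 163 to 171 CPM on average in the other diets. The beta sum was 79.5 ± 5.73 CPM in IS and reached 88.5 ± 6.16 CPM in ISch, and the gamma sum was 341 ± 34.9 CPM in IS and reached 371 ± 14.5 CPM in IDch. All 9 male sums in the other diets overlapped those of IS library by library. In females, the beta sum was 108 ± 2.19 CPM in IS, 116 ± 5.87 in ISch, 115 ± 2.37 in IDch and 103 ± 7.02 in ID, and the ISch and IDch libraries all lay above the IS libraries. The female alpha sum was 184 ± 6.24 CPM in IS and 170 ± 11.01 in IDch, also without overlap. Female gamma sums were 421 to 460 CPM on average and overlapped IS in each diet. These sums were described without a test. Pcdha13 made up most of the alpha sum and Pcdhgc3 a large part of the gamma sum. Those sums therefore mainly follow these rows and say little about the other isoforms of the clusters. In bulk tissue, fewer expressing cells and less RNA per cell cannot be told apart.

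**Figure D1:**
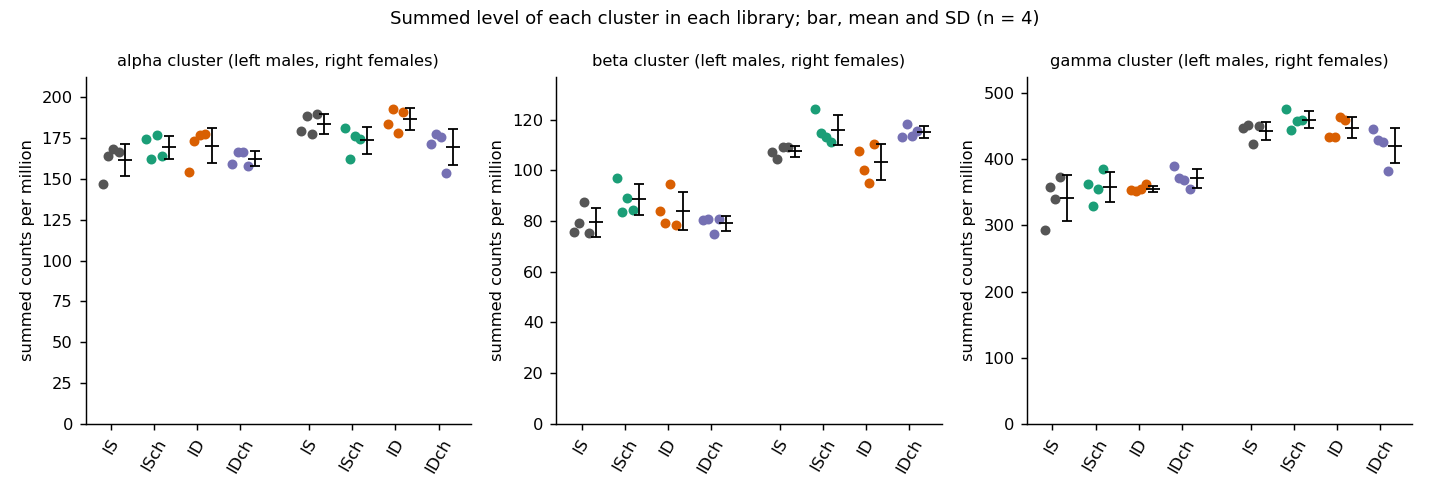
Summed CPM of the alpha, beta and gamma members in each library (y axis, from 0) by diet group (x axis), males on the left and females on the right of each panel; bars are the mean and SD of 4 libraries. The female beta sums of ISch and IDch lie at 111 CPM or above, over the IS libraries at 105 to 109.

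Single members differed more than the sums. Calls with an adjusted p under 0.05 by edgeR's quasi-likelihood test on the groups compared were all in female comparisons with a choline group. Calls by an unadjusted p were made in both batches. Male libraries were less deep, with a median of 8007907 counts against 21747536.5 in females. A member was called by the study's own criterion, an absolute log2 fold change over 0.2 with an unadjusted p under 0.05, from edgeR's quasi-likelihood test on all genes. Adjusted p values below are from the same test with Benjamini-Hochberg adjustment over all genes tested. In female ISch against IS, 9 of 35 members were higher and 5 lower by the criterion, where 5.14% and 5.15% of all genes were, and 5 members had an adjusted p under 0.05, as 2.54% of all genes had. In female IDch against ID, 3 members were higher and 3 lower (5.59% and 7.07% of all genes) and 3 passed the adjustment (2.28%). In female IDch against IS, 2 were higher and 4 lower (4.16% and 4.82%) and 2 passed the adjustment (0.907%). In female ID against IS, 0 were higher and 1 lower (3.08% and 3.4%), with 0 at an adjusted p under 0.05 (0.191%).

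In males no member passed the adjustment in any comparison by edgeR's quasi-likelihood test on the groups compared. By edgeR's likelihood ratio test, Pcdhga3 in ISch against IS (adjusted p = 0.0367) and Pcdhb3 in IDch against ID (adjusted p = 0.0351) did pass, and Pcdhb3 also passed with the 4 diet groups in one fit (adjusted p = 0.0435). Calls by the criterion were 4 higher and 0 lower of 35 in ID against IS (2.34% and 2.28% of all genes), with 0% of all genes at an adjusted p under 0.05. In ISch against IS they were 3 higher and 1 lower of 35 (4.52% and 3.54%, with 0.208% adjusted). In IDch against IS they were 6 higher and 2 lower of 34 (2.91% and 3.21%, with 0.131% adjusted), and in IDch against ID 2 higher and 5 lower of 34 (5.74% and 7.24%, with 1.28% adjusted). With the fold limit removed, 4, 4, 8 and 7 members had an unadjusted p under 0.05 in these comparisons. Across all members tested, the median absolute log2 fold change was 0.16 to 0.22 in the male comparisons, where that of all genes was 0.10 to 0.12, and in females 0.07 in ID against IS (all genes 0.07), 0.21 in ISch against IS (0.09), 0.13 in IDch against IS (0.09) and 0.189 in IDch against ID (0.105).

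**Figure D2:**
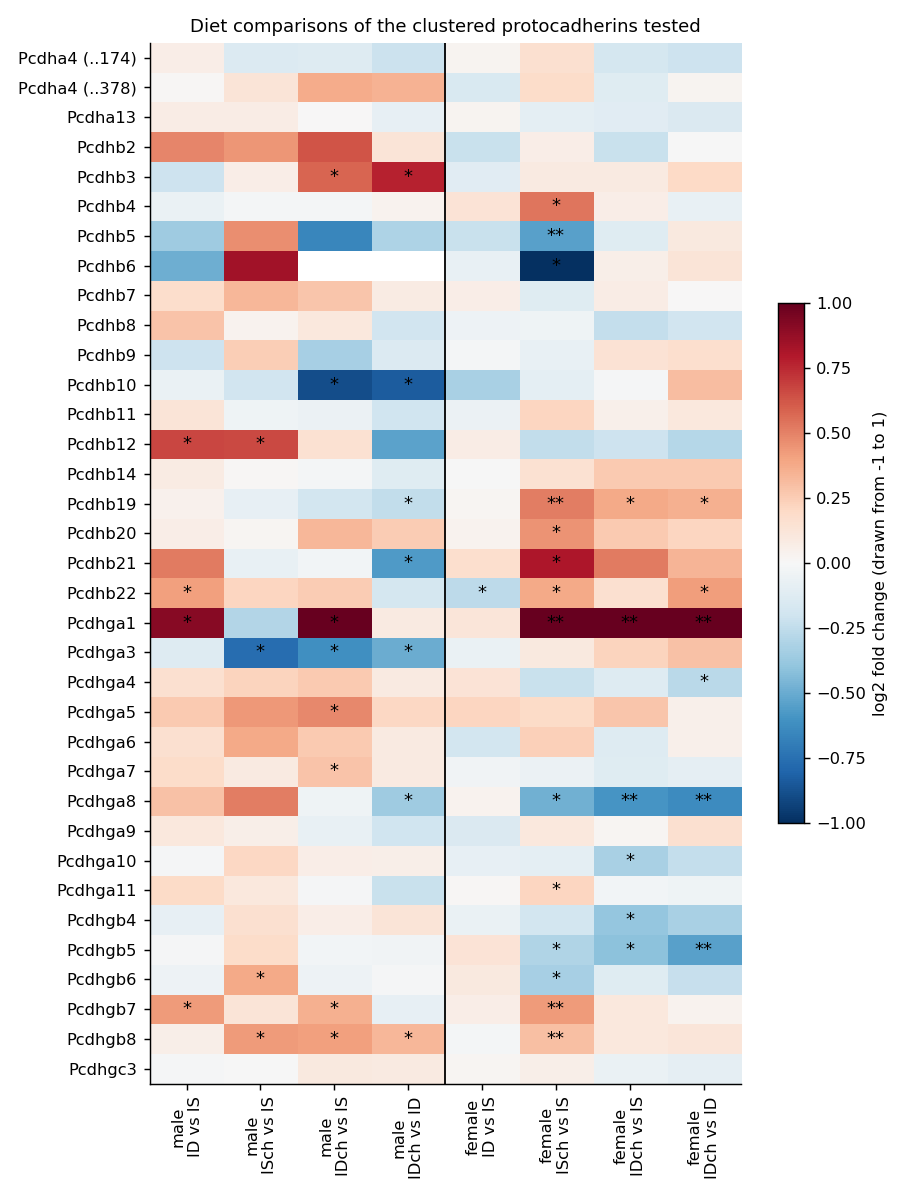
Log2 fold change of each member tested (rows) in the 4 diet comparisons of each batch (columns), as colour from -1 to 1; an asterisk marks the study's criterion and a double asterisk an adjusted p under 0.05 as well, and white cells were not tested. In females all asterisks but that of Pcdhb22 in ID against IS sit in the 3 comparisons with a choline group, and Pcdhga1 has a log2 fold change of 2.42 to 2.78 there, beyond the colour scale.

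In a test over all 4 diets, any difference among the diets had an unadjusted p under 0.05 for 11 of 35 members in females, where 22.5% of all genes had one, and for 10 of 35 in males, where 14.3% had one. After adjustment, 5 members remained in females (5.34% of all genes) and 0 in males (0.748%). The female members were Pcdhga1 (adjusted p = 4.65e-05, rank 16 of 14975 genes), Pcdhb19 (0.00325), Pcdhga8 (0.00383), Pcdhgb5 (0.0123) and Pcdhb22 (0.0263). Among male members Pcdhga3 had the smallest p (0.0011, adjusted p = 0.0916 by edgeR).

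Pcdhga1 (ENSRNOG00000039463), a gamma-A isoform and the first gamma gene in RefSeq order, differed most. In females its CPM was 0.505, 0.927, 0.660 and 1.39 in the IS libraries and 0.609, 1.26, 0.685 and 1.29 in the ID libraries. With choline it was 6.36, 4.73, 6.89 and 6.37 in ISch and 7.42, 3.35, 6.56 and 3.33 in IDch. The 8 choline libraries all lay above the 8 libraries without choline, and the iron-sufficient and iron-deficient groups overlapped. The counts behind these values were 10 to 33 in a library without choline and 72 to 189 in a library with it, above the 3 counts that a 0 allows. The log2 fold change was 2.78 (SE 0.262) in ISch against IS, with an adjusted p of 0.000416. It was 2.42 (SE 0.349, adjusted p = 0.00833) in IDch against ID and 2.55 (SE 0.362, adjusted p = 0.0132) in IDch against IS. These are changes of 6.87-fold, 5.35-fold and 5.84-fold, and in ID against IS the value was 0.12 (adjusted p = 0.942). Without IS replicate 2 the adjusted p of IDch against IS passed 0.05, and it reached 0.0839 over all alternatives, while ISch against IS and IDch against ID stayed under it. An exact permutation test of 4 libraries against 4 gave p = 0.029 in each of the 3 comparisons, the smallest it can give.

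In males, the lowest and the highest value of the same gene were both in choline libraries. Its CPM was 2.24, 2.88, 4.69 and 3.55 in IS, 4.16, 6.20, 5.76 and 8.76 in ID, 1.21, 0.713, 4.01 and 4.71 in ISch, and 6.44, 1.41, 7.52 and 9.53 in IDch. The lowest 3 of the 16 values were those of the libraries with names ending in A, at 0.713 to 1.41 CPM against 2.24 to 9.53 in the others. Pcdhga1 met the criterion in male ID against IS, with a log2 fold change of 0.91 (SE 0.266, adjusted p = 0.786 by edgeR), and in IDch against IS at 1.01 (SE 0.358, adjusted p = 0.478). In ISch against IS it was -0.29 (adjusted p = 0.842). Without ISch replicates 1 and 2, 4 members were called in male ISch against IS, and Pcdhb12 and Pcdhgb6 were no longer among them.

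**Figure D3:**
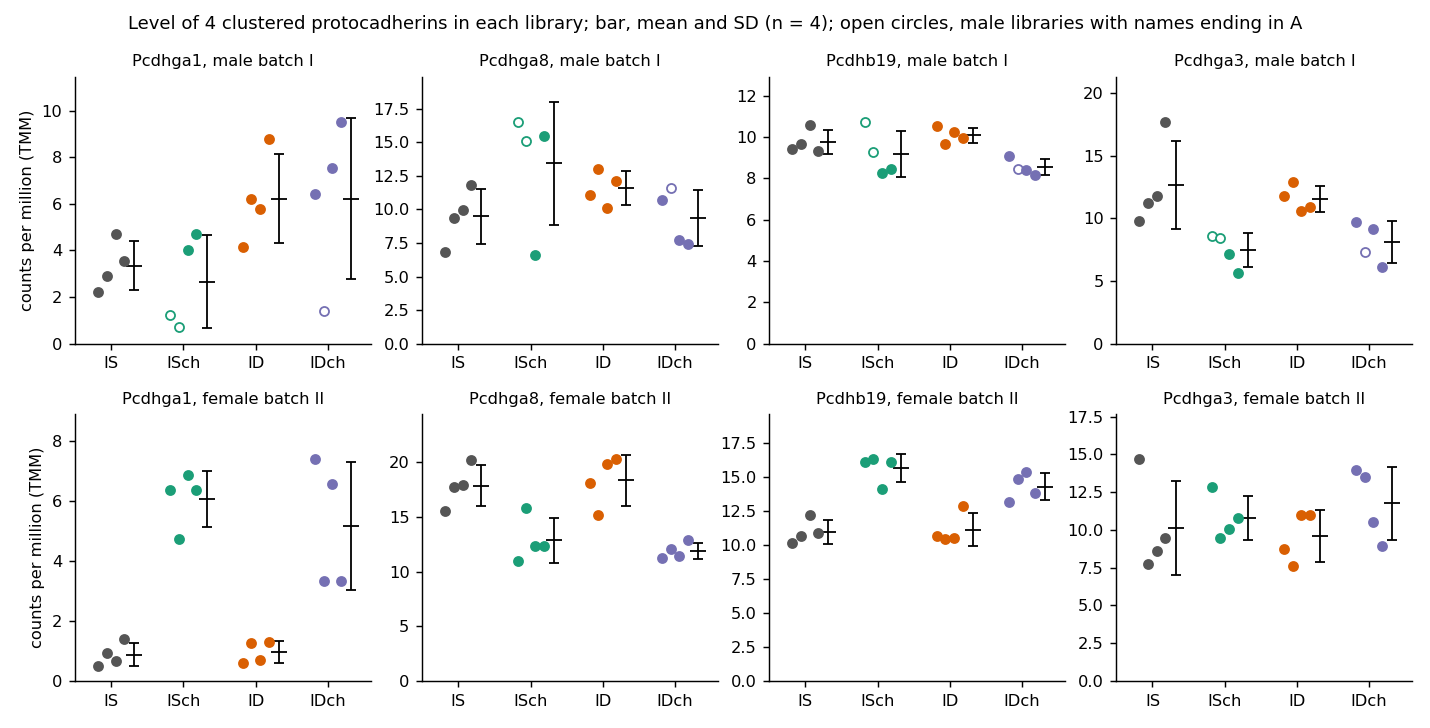
CPM of Pcdhga1, Pcdhga8, Pcdhb19 and Pcdhga3 in each library (y axes, from 0) by diet, males above and females below; bars are the mean and SD of 4 libraries and open circles are the 3 male libraries with names ending in A. Female Pcdhga1 is at 1.39 CPM or less without choline and at 3.33 or more with it, and the open circles are the lowest male values of that gene.

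Other gamma members moved in both directions in the female choline groups. Pcdhga8 (ENSRNOG00000027277), another gamma-A isoform, was at 15.6, 17.8, 17.9 and 20.2 CPM in female IS, 18.1, 15.2, 19.9 and 20.3 in ID, 11.01, 15.8, 12.4 and 12.3 in ISch, and 11.2, 12.1, 11.4 and 12.9 in IDch. Every IDch library lay below every library of IS and ID, and ISch overlapped IS through its replicate 2. It fell by 0.63 on the log2 scale in IDch against ID (SE 0.0999, adjusted p = 0.0121) and by 0.59 in IDch against IS (SE 0.0928, adjusted p = 0.0204), and in ISch against IS the value was -0.48 (SE 0.119, adjusted p = 0.0629). The adjusted call against ID held in every alternative, and the one against IS was lost without IS replicate 2, 3 or 4 or IDch replicate 1 or 2, at up to 0.0792. In ISch against IS the adjusted p of Pcdhga8 went as low as 0.00717 in the alternatives. Pcdhgb5, a gamma-B isoform, was at 13.4 to 16.4 CPM in IS, 15.1 to 17.2 in ID, 10.7 to 14.1 in ISch and 9.03 to 12.7 in IDch. Its IDch libraries lay below both groups without choline, and it fell by 0.55 in IDch against ID (SE 0.106, adjusted p = 0.0273). That adjusted call was lost without any 1 of the ID libraries, and its p reached at most 0.0863 over all alternatives.

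Pcdhgb7 and Pcdhgb8, the gamma-B isoforms that rose, did so in ISch. Pcdhgb7 was at 16.4, 12.4, 14.0 and 12.7 CPM in female IS and at 18.1, 19.6, 19.1 and 17.8 in ISch, without overlap, a log2 fold change of 0.43 (SE 0.0947, adjusted p = 0.04). Pcdhgb8 was at 15.9 to 18.4 CPM in IS and 20.5 to 22.5 in ISch, also without overlap, at 0.30 (SE 0.0699, adjusted p = 0.0484). Over all alternatives these adjusted p values reached 0.124 and 0.178. The adjusted call was lost without any of 6 single libraries for Pcdhgb7 (IS replicates 2, 3 and 4, ISch replicates 2, 3 and 4) and without any of the 8 for Pcdhgb8. That of Pcdhgb8 was also lost with all genes of at least 1 count and with the 4 diet groups fitted together. In IDch both overlapped ID, with 11.6 to 17.3 CPM for Pcdhgb7 and 12.9 to 21.0 CPM for Pcdhgb8. The remaining gamma members at the criterion in a female choline comparison were Pcdhga11 (higher in ISch, 0.22), Pcdhgb6 (lower in ISch, -0.34), Pcdhgb4 and Pcdhga10 (lower in IDch against IS, -0.38 and -0.32) and Pcdhga4 (lower in IDch against ID, -0.27). None of these 5 passed the adjustment by edgeR (adjusted p 0.19 to 0.292).

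Among beta members, Pcdhb19 (ENSRNOG00000039469) was higher with choline in both iron backgrounds. Its CPM was 10.2, 10.7, 12.2 and 10.8 in female IS, 16.1, 16.3, 14.1 and 16.1 in ISch, 10.7, 10.4, 10.5 and 12.9 in ID, and 13.2, 14.8, 15.4 and 13.8 in IDch. The 8 choline libraries again lay above the 8 others. The log2 fold change was 0.51 (SE 0.0876, adjusted p = 0.0164) in ISch against IS, 0.36 (SE 0.0956, adjusted p = 0.0853) in IDch against ID and 0.38 (SE 0.0885, adjusted p = 0.092) in IDch against IS. The first of these lost its adjusted call without IS replicate 2 or 4, with an adjusted p of at most 0.0915 over all alternatives. In the alternatives the adjusted p went as low as 0.032 in IDch against ID and 0.0173 in IDch against IS. Pcdhga1 and Pcdhb19 were the 2 members with all choline libraries above all others in females, where 0.775% of 14975 genes were above and 0.521% below. No member was below.

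Pcdhb5 and Pcdhb6, neighbours in RefSeq order, were lower in female ISch than in IS. Pcdhb5 was at 11.8, 9.85, 12.3 and 9.62 CPM in IS and 7.34, 7.13, 7.16 and 8.25 in ISch, without overlap, and fell by 0.55 (SE 0.108, adjusted p = 0.026). Pcdhb6 was at 3.89, 1.70, 3.52 and 1.55 CPM in IS and 1.32, 1.41, 1.17 and 1.09 in ISch, and met the criterion at -1.09 (SE 0.316, adjusted p = 0.114). In IDch both spread widely, with Pcdhb5 at 5.99 to 14.9 CPM and Pcdhb6 at 1.33 to 4.81 CPM, and overlapped all other groups. The adjusted call of Pcdhb5 was lost without any of 6 single libraries (IS replicates 1, 2 and 3, ISch replicates 2, 3 and 4). It was also lost with the 4 diet groups fitted together and with a replicate block, and the adjusted p reached 0.247 over all alternatives. Pcdhb21 (0.81), Pcdhb4 (0.54), Pcdhb20 (0.45) and Pcdhb22 (0.38) were higher by the criterion in ISch against IS, with adjusted p of 0.0821 to 0.201. Of these, Pcdhb20 alone had groups that did not overlap, at 4.79 to 6.69 CPM in IS and 7.16 to 8.52 in ISch. In the alternatives the adjusted p of Pcdhb6 and that of Pcdhb21 in ISch against IS each went as low as 0.0385.

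ISch against IS and IDch against ID share no library and can be set side by side. In females, 5 members were called in both comparisons and all 5 had the same sign: Pcdhga1, Pcdhb19 and Pcdhb22 were higher, and Pcdhga8 and Pcdhgb5 lower. They made up 35.7% of the 14 members called in ISch against IS and 83.3% of the 6 called in IDch against ID. Over all 35 members, 25 had the same sign. In males, 2 members were called in both (Pcdhgb8 higher, Pcdhga3 lower), 50% of 4 and 28.6% of 7, and 18 of 34 had the same sign. The same shares over all genes were not computed. Whether the members agreed more between the comparisons than other genes therefore cannot be told from these counts. A test of the iron by choline interaction found an unadjusted p under 0.05 for 3 of 35 members in females, where 9.18% of all genes had one, and for 4 of 35 in males, where 15.4% had one. After adjustment it found 0 in each batch.

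The female choline groups also differed in markers of dentate granule cells, the principal neurons of the dentate gyrus, which is part of the hippocampus. The summed CPM of Prox1, Calb1, Dsp and C1ql2 was 262 to 305 in IS, 283 to 312 in ID, 375 to 410 in ISch and 343 to 415 in IDch. All 4 markers were higher by the criterion in ISch against IS (4 with an adjusted p under 0.05) and in IDch against IS (1), and 2 of 4 in IDch against ID (2). The part of these markers in the protocadherin differences was not tested. Dsp, which encodes the desmosome protein desmoplakin, was at 1.60 to 2.22 CPM in IS, 1.37 to 1.85 in ID, 11.9 to 18.2 in ISch and 10.1 to 16.1 in IDch. Its log2 fold change was 2.87 in ISch against IS (SE 0.174, adjusted p = 2.73e-05), whereas Prox1, a transcription factor of granule cells, was at 0.39 (SE 0.0742, adjusted p = 0.0227). Markers of other cell types also moved in the female choline groups. In ISch against IS, astrocyte Aldh1l1 was at 0.36 (adjusted p = 0.0215), and microglial P2ry12 (-0.41) and Cx3cr1 (-0.23) met the criterion. In IDch against ID, astrocyte Aqp4 (0.30, adjusted p = 0.0239) and Aldh1l1 (0.36, adjusted p = 0.0346) and interneuron Slc32a1 (-0.25, adjusted p = 0.0425) passed the adjustment. In IDch against IS, astrocyte Aldh1l1 (0.28) and Gja1 (-0.23) met the criterion in opposite directions. The median log2 fold change of the astrocyte list was 0.122, 0.022 and -0.018 in these comparisons, in that order. That of the microglial list was -0.177, -0.174 and -0.189. Cx3cr1 also met the criterion in IDch against ID (-0.32) and in IDch against IS (-0.28). The median of the interneuron list was -0.056 in IDch against ID, where Slc32a1 alone of its 6 genes was called. Choroid plexus Ttr met the criterion in IDch against IS (-1.05) and IDch against ID (-1.69). In males, the summed granule markers overlapped between the diets at 283 to 342 CPM. Of the 4 markers, Calb1 was lower by the criterion in male ISch against IS (-0.22), IDch against IS (-0.22) and IDch against ID (-0.23), and C1ql2 in ISch against IS (-0.23). In male IDch against ID, oligodendrocyte Mbp (0.29), precursor Cspg4 (0.40) and astrocyte Aqp4 (-0.27) met the criterion as well. The median log2 fold changes of their lists were 0.102, -0.005 and 0.023, so the precursor and astrocyte lists did not move as Cspg4 and Aqp4 did. Endothelial Cldn5 (0.23) and Slco1a4 (-0.22) were called in opposite directions. Also called were microglial C1qb (0.24), interneuron Vip (-0.27), choroid plexus Ttr (-6.25), thalamic Lef1 (0.35) and striatal Drd1 (-0.47). The medians of the microglial, interneuron, thalamic and striatal lists were 0.017, 0.013, 0.263 and -0.016. Of the choroid plexus list, Ttr alone was tested. The part of these markers in the values of the members was not tested.

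Dsp was also low in the 3 male libraries with names ending in A, at 1.07 to 2.26 CPM against 3.05 to 11.4 in the other 13. These are the libraries with the lowest male Pcdhga1. In the whole table, 406 of 13861 genes had those 3 libraries above or below all other male libraries, and 185 had the female libraries without choline above or below all those with choline. The 2 sets shared 24 genes, 5.91% of the male and 13% of the female set. In 23 of the 24, the male A libraries and the female libraries without choline lay on the same side, 12 on the low side and 11 on the high side. Pcdhga1 was the only member among the 24. All 3 of these male libraries are from choline groups. The genes were picked for having the 3 apart from all 13 other males. The other 5 male choline libraries therefore lie with the males without choline by that choice.

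**Figure D4:**
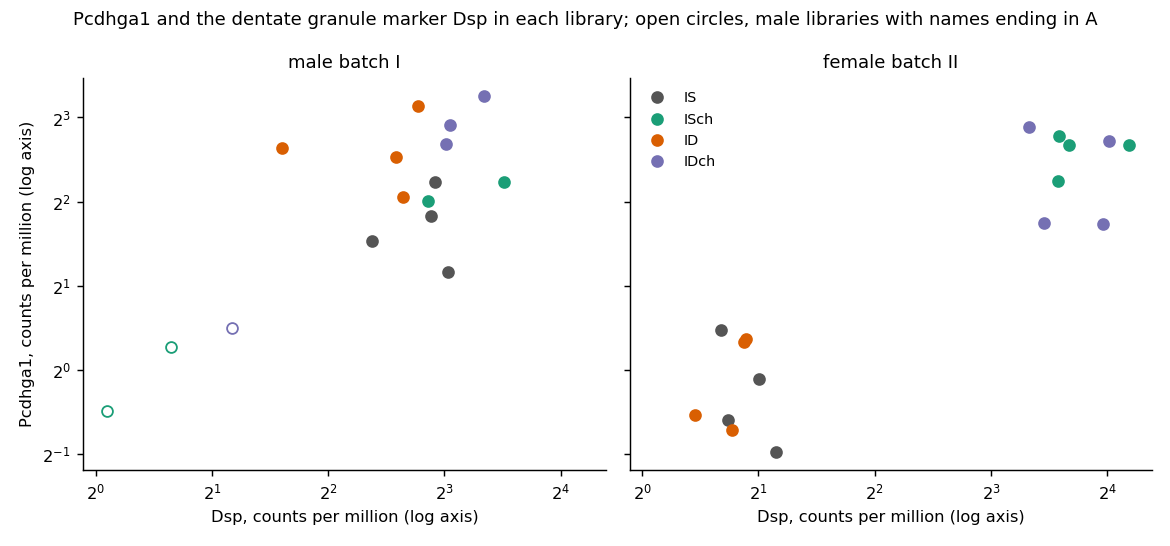
CPM of Pcdhga1 (y axis) against CPM of Dsp (x axis) in each library, both on log axes, males on the left and females on the right; colours are diets and open circles the 3 male libraries with names ending in A. The female libraries form a low group without choline (Dsp up to 2.22 CPM) and a high group with choline (Dsp from 10.1 CPM), and the open circles lie apart from the other males, toward the low corner.

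In males, Pcdhga3 and Pcdhb10 met the criterion in every alternative, as did Pcdhga1 in ID against IS. Pcdhb3 and Pcdhga1 each lost it in IDch against IS without IDch replicate 4 alone. Pcdhga3 (ENSRNOG00000039461), a gamma-A isoform, was at 9.81, 11.2, 11.8 and 17.7 CPM in IS, 11.8, 12.9, 10.6 and 10.9 in ID, 8.58, 8.44, 7.14 and 5.65 in ISch, and 9.72, 7.35, 9.18 and 6.11 in IDch. All 8 choline libraries, the A-named ones among them, lay below the 8 others, which held for 0.21% of 14314 genes. Its log2 fold change was -0.76 (SE 0.197, adjusted p = 0.254) in ISch against IS, -0.50 (SE 0.15, adjusted p = 0.12) in IDch against ID and -0.61 (SE 0.201, adjusted p = 0.441) in IDch against IS, by edgeR's quasi-likelihood test. In females the same gene was at 7.77 to 14.7 CPM in IS and 9.47 to 12.8 in ISch, and it was not called in any comparison.

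Pcdhb10 was low in male IDch, at 2.65, 1.41, 1.66 and 2.68 CPM, against 2.86 to 5.75 in IS, 2.84 to 5.18 in ID and 2.82 to 4.64 in ISch. Every IDch library lay below every other library, but narrowly, at up to 2.68 CPM against 2.82 or more. The value of 1.41 CPM is from IDch replicate 2, where 3 counts equalled 0.848 CPM. The share of all genes with such a split was not computed. The log2 fold changes of Pcdhb10 were -0.89 against IS (SE 0.284, adjusted p = 0.42) and -0.83 against ID (SE 0.276, adjusted p = 0.15). Pcdhb3 was at 8.96, 8.48, 5.42 and 9.68 CPM in male IDch, with 3 libraries above all of IS (4.84 to 6.51), ID (3.57 to 6.23) and ISch (5.13 to 6.16) and 1 among them. It met the criterion at 0.77 against ID (SE 0.219, adjusted p = 0.103) and 0.58 against IS (SE 0.202, adjusted p = 0.472), and in females its groups overlapped, with log2 fold changes of -0.11 to 0.20. Pcdhb6, too low in male IDch (0.283 to 0.884 CPM) to be tested there, was at 2.50 to 3.87 CPM in male ISch, 0.296 to 3.46 in IS and 0.525 to 1.94 in ID. The other male members at the criterion, with adjusted p of 0.245 to 0.786, included Pcdhgb8, higher in ISch (0.43), in IDch against IS (0.41) and in IDch against ID (0.33). Pcdhb12 was higher in ID (0.67) and ISch (0.66), and Pcdhgb6 (0.38) in ISch. Pcdhga5 (0.48), Pcdhgb7 (0.35) and Pcdhga7 (0.29) were higher in IDch against IS, and Pcdhb21 (-0.56), Pcdhga8 (-0.35) and Pcdhb19 (-0.25) lower in IDch against ID.

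Few members were called between formerly iron-deficient and control adults without choline. In males, Pcdhga1, Pcdhb12, Pcdhgb7 and Pcdhb22 were higher by the criterion in ID, and their groups overlapped with IS. Pcdhgb7 was at 9.69, 9.51, 15.3 and 13.5 CPM in IS and 14.4, 15.9, 17.8 and 16.1 in ID, a log2 fold change of 0.42 (SE 0.155, adjusted p = 0.786). Pcdhb22 was at 6.91 to 9.69 CPM in IS and 8.59 to 12.9 in ID, at 0.41. Male ID libraries carried 5.998 to 384 CPM of choroid plexus markers, and their part in these values was not tested. In females, Pcdhb22 was the member called, in the opposite direction, with 8.99 to 12.2 CPM in IS and 7.48 to 9.25 in ID and a log2 fold change of -0.26 (SE 0.114, adjusted p = 0.421).

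Pcdhgc3 and Pcdha13, the gamma and alpha members with most counts, met the criterion in no comparison. Pcdhgc3 (ENSRNOG00000019799), the sole C-type isoform among the rows, was at 175 to 228 CPM in males and 230 to 271 CPM in females, and its log2 fold changes were -0.09 to 0.10 over the 8 comparisons. Pcdha13 was at 141 to 171 CPM in males and 146 to 185 in females. Its log2 fold changes were -0.14 to 0.08, with the most negative in female IDch against ID (adjusted p = 0.209). In RefSeq, Pcdhgc3 shares its end with 11 other gamma gene models and the whole alpha cluster is 1 gene. Reads from the shared last exons cannot be assigned to 1 isoform, and how the counting treated them is not given in the sources used here. There were 2 rows with the symbol Pcdha4, and at 2.52 to 6.66 CPM neither met the criterion in any comparison. Pcdhb14 (5.59 to 10.9 CPM over both batches) did not meet it either, and Pcdhga7, the gamma member with most counts after Pcdhgc3, did so in male IDch against IS alone.

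Members differed in how much rats of one group varied. The median biological coefficient of variation of the members, the replicate spread beyond counting noise as edgeR estimates it, was 0.131 in males and 0.137 in females, against 0.0843 and 0.0894 over all genes. Most members have few counts, and the spread over all genes was not matched for level. Pcdhga1 (0.42 in males, 0.289 in females) and Pcdhb6 (0.333 and 0.384) spread most. Pcdhb19 was lowest in males at 0.0341, and Pcdhgc3 was lowest in females at 0.0477.

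With group means removed, a few pairs of members were correlated over 0.5 in both batches. The correlation of log2 CPM residuals over 16 libraries was 0.645 in males and 0.763 in females for Pcdhb5 with Pcdhb9, 0.572 and 0.698 for Pcdhb5 with Pcdhb6, and 0.556 and 0.835 for Pcdhb6 with Pcdhb9. Pcdhb8, which lies between Pcdhb6 and Pcdhb9 in RefSeq order, ran against them, at -0.566 and -0.91 with Pcdhb9 and -0.508 and -0.813 with Pcdhb6. Among 595 pairs, 62 were over 0.5 in males and 50 in females, 6 of them in both (the 3 above, Pcdhga10 with Pcdhb2, Pcdhga6 with Pcdhga7 and Pcdha13 with Pcdhb8). These 6 were 9.68% of the male and 12% of the female pairs over 0.5, where 10.4% of all pairs were over 0.5 in males and 8.4% in females, so the share in both was near that of all pairs. Below -0.5 were 29 and 25 pairs, 4 of them in both. The median was 0.082 in males and 0.073 in females. These are descriptions across libraries that share their normalization, and reads of similar beta genes may be split or shared by the counting.

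**Figure D5:**
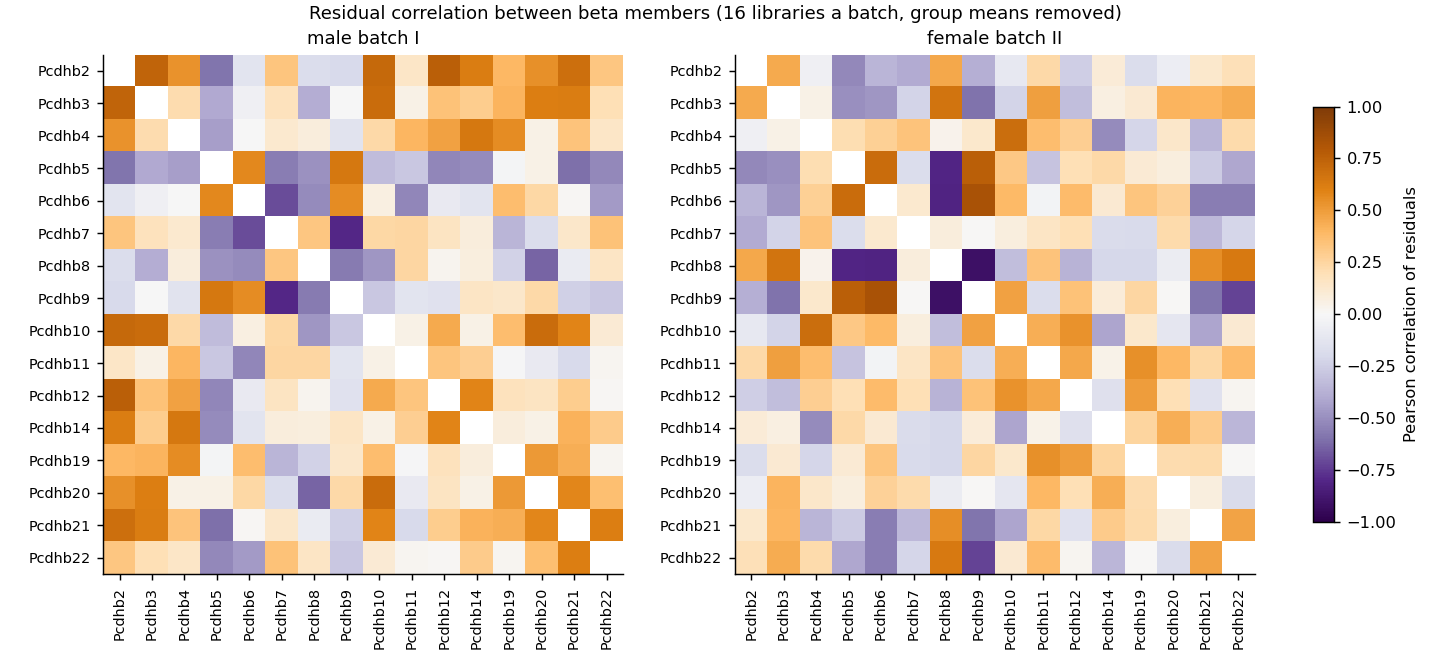
Pearson correlation of log2 CPM residuals between beta members over 16 libraries of each batch, males on the left and females on the right, with group means removed; brown is positive and purple negative. Pcdhb5, Pcdhb6 and Pcdhb9 form a positive group (0.556 to 0.835) that is negative with Pcdhb8 in both batches.

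Of 13 genes of cluster architecture and promoter choice, such as CTCF and cohesin subunits, 0 or 1 met the criterion in each of the female comparisons and none passed the adjustment. In male IDch against ID, 2 of 13 were lower, where 7.24% of all genes were. They were Stag2, a cohesin subunit (-0.41, SE 0.0695, adjusted p = 0.0177), and Wapl, which releases cohesin (-0.35, adjusted p = 0.0976). Ctcf itself was at -0.20 there (SE 0.0624, adjusted p = 0.134) and between -0.17 and 0.09 elsewhere, and Rad21, a cohesin subunit, ranged from -0.17 to 0.11. Stag2 was also lower by the criterion in male IDch against IS (-0.22, adjusted p = 0.472). Wapl was higher in male ID against IS (0.30, adjusted p = 0.786). Its mean was 59.69 CPM in male ID, 47.68 in IDch and 48.25 in IS. Of 16 silencing and DNA methylation genes, 0 to 1 were called in each comparison other than male IDch against ID, where Ehmt2 was higher (0.25) and Lrif1 (-0.37) and Smchd1 (-0.22, adjusted p = 0.256) were lower. Smchd1, a silencing factor known to act on the clusters, was between -0.07 and 0.16 in the other comparisons. Lrif1, its binding partner, was higher in male ID against IS (0.31, adjusted p = 0.786).

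Of 26 signalling, partner and cleavage genes tested, 0 to 2 were called in a comparison, with Nlgn2, a synaptic adhesion protein, past the adjustment in female IDch against ID (-0.24, SE 0.0545, adjusted p = 0.0459). Of 17 non-clustered protocadherins and large cadherins, 5 were lower in female IDch against ID, where 7.07% of all genes were, among them Celsr2 (-0.30), Pcdh10 (-0.305) and Pcdh7 (-0.46), with adjusted p of 0.069 to 0.16. In female IDch against IS, 3 of 17 were lower, where 4.82% of all genes were. In male ISch against IS, 4 were higher, where 4.52% of all genes were, among them Pcdh15 (0.86) and Pcdh19 (0.40), with adjusted p of 0.367 to 0.448. Of 12 to 14 genes flanking the clusters, at most 1 was called in each direction in any comparison, and none passed the adjustment by edgeR.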

How the data were processed

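Per the labels and the methods, the authors prepared TruSeq libraries (RNAqueous kit for males, RNeasy for females), used Trimmomatic for trimming, HISAT2 for alignment to Rnor_6.0 and featureCounts for counting, and deposited a raw count for each gene in 32 libraries. Strand, multi-mapping and annotation release are not given in the sources used here. Labels do not say that replicates are separate litters in either sex, so p-values measure the spread between these samples.

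The analysis ran in edgeR 4.0.16 under R 4.3.3: filterByExpr, TMM and the quasi-likelihood test on the whole table, each pair of groups fitted apart, with Benjamini-Hochberg adjustment. The threshold was an absolute log2 fold change over 0.2 with p under 0.05. Exact permutation tests were 2-sided. Over 48 replicate pairs, the chi-square per gene was 2.02 to 25.2, so none was a duplicate. The fits were tested on simulated data. Members were named if they passed the adjustment, were among the 4 largest changes at the criterion in a direction, had most counts in a cluster, were C-type, or were Pcdhb3, Pcdhb4 or Pcdhb14. Other called members were named to complete the account. From gene lists, up to 3 called genes per comparison, Ctcf, Rad21 and Smchd1 were named, and markers were named with the results they accompany. Members and lists were chosen with earlier results of these data known. The split by library names and the shared side of genes were examined after seeing the data.

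Alternatives were RLE size factors, DESeq2 1.42.0, edgeR's likelihood ratio test, all genes with at least 1 count, the 4 groups in one fit, a replicate block, other call rules and each library left out. The fits without ISch replicates 1 and 2, and without the 3 A-named libraries, were chosen after seeing the data. Promoter sequences are RefSeq's (GRCr8).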

Additional observations from a re-analysis of the deposited data

Results flagged for a closer look

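The effect of choline on 4 members differed between the batches in a model of all 32 libraries, in which sex, sequencing batch and RNA kit cannot be told apart. The female minus male log2 fold change of Pcdhga1 was 3.07 in ISch against IS (edgeR adjusted p = 0.00913) and 2.36 in IDch against ID (adjusted p = 0.0167). That of Pcdhb19 was 0.593 in ISch against IS (adjusted p = 0.015), 0.573 in IDch against IS (adjusted p = 0.0247) and 0.613 in IDch against ID (adjusted p = 0.00735). That of Pcdhga8 was -0.998 in ISch against IS (adjusted p = 0.0428), and that of Pcdhb10 was 1.157 in IDch against ID (adjusted p = 0.0434). The male values of Pcdhga1 include the 3 libraries with names ending in A. Of all 15520 genes, 1.31% differed so after adjustment in ISch against IS, 1.31% in IDch against IS and 4.63% in IDch against ID, and of the 35 members 3, 1 and 3 did. In ID against IS no member differed between the batches after adjustment.

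Single libraries lay far from the other 3 of their group in 6 of the 94 sets of 4 values examined (6.38%), and such a gap is seen by chance in about 1 of 20 sets. Pcdhgb6 was at 11.24 CPM in male ISch replicate 1, against 8.32 to 8.68 in the others. Pcdhb19 was at 14.1 CPM in female ISch replicate 3, against 16.1 to 16.3, and at 12.89 CPM in female ID replicate 4, against 10.4 to 10.7. The summed alpha level was 154.4 CPM in male ID replicate 1, against 174 to 177, and the summed beta level 74.85 CPM in male IDch replicate 3, against 80.3 to 80.8. The summed gamma level was 423.5 CPM in female IS replicate 3, against 447 to 452.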

How the results depend on the processing

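Of 43 named member and comparison pairs, 0 changed sign. Leaving out a library kept the criterion in 282 of 348 refits and lost it in 66, and the other alternatives kept it in 244 of 258. The cluster sums moved by less than 1 SD under RLE factors, plain library totals and each library left out.

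An adjusted p under 0.05 gave 0 called members in each male comparison and in female ID against IS, and 5, 2 and 3 in female ISch against IS, IDch against IS and IDch against ID. In male ISch against IS (4 called), edgeR's likelihood ratio test gave 8 and all genes with at least 1 count gave 7. DESeq2 gave 5 in male IDch against IS (8 called) and 4 in male IDch against ID (7 called), where the 4 diet groups in one fit also gave 4. In female ID against IS (1 called), the likelihood ratio test and the 4 groups in one fit gave 0. Over all 4 diets at an adjusted p under 0.05, males (0) had 3 by DESeq2, 3 by edgeR's likelihood ratio test and 2 with all genes, and females (5) had 8 by DESeq2. The cause of these shifts was not tested.

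With each library left out, the called members were 1 to 5 in male ID against IS (1 without IS replicate 1 or 2 or ID replicate 3), 3 to 7 in ISch against IS (7 without IS replicate 4), 4 to 11 in IDch against IS (4 without IS replicate 1 or IDch replicate 1) and 3 to 6 in IDch against ID (3 without IDch replicate 3, and 4 without ID replicate 4 or IDch replicate 1 or 2). They were 0 to 2 in female ID against IS (0 without IS replicate 2 or 4 or ID replicate 2 or 3, and 2 without IS replicate 1), 13 to 15 in ISch against IS, 6 to 8 in IDch against IS and 5 to 9 in IDch against ID. Over all 4 diets at an adjusted p they were 0 to 1 in males and 4 to 6 in females. Without ISch replicates 1 and 2, 4 members were called in male ISch against IS, 2 of them shared with the full set. Without the 3 A-named libraries, 7 members (10 with them) had an unadjusted p under 0.05 over all male diets.

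Replicate numbers do not pair the rats. Same-numbered libraries correlated over 0.1 in 3 of 24 male and 1 of 24 female pairs. The replicate block gave 5, 6, 6 and 5 called members in the male comparisons and 1, 14, 6 and 6 in the female ones, in the order ID, ISch and IDch against IS and IDch against ID, with 10 and 11 over all diets in males and females. Of the 10 adjusted calls among female members it kept 3 (Pcdhga1 in ISch against IS and IDch against ID, and Pcdhga8 in IDch against ID), and the other 7, with adjusted p of 0.051 to 0.147, passed 0.05. Male depth limits members under a few CPM, such as Pcdhb6, to counts of 1 to 8 in IDch.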

Other observations

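Among the 24 genes with the 3 A-named male libraries and the female libraries without choline each apart from the rest, several had large differences. Slc9b1, a sodium-hydrogen exchanger family member, was at 6.16 to 7.72 CPM in the A-named male libraries and 0.151 to 1.33 in the other males, and at 2.84 to 5.26 CPM in females without choline and 0.275 to 2.22 with it. Nqo2, a quinone reductase, was at 7.63 to 8.91 against 1.75 to 7.29 CPM in males and at 5.81 to 9.43 against 1.44 to 3.43 CPM in females. Prdx6, an antioxidant enzyme, was lower in the A-named males (148 to 160 against 197.8 to 250.6 CPM) and in females without choline (149 to 168 against 182 to 235 CPM). Tbcd was the gene of the 24 on opposite sides. These genes were chosen after their values were seen.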
